A study of Mus musculus with 16 samples.

Results

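The Wnt ligands, their Frizzled receptors, the co-receptors Lrp5 and Lrp6 and 3 genes that read out or carry the nuclear response (Axin2, Lef1 and Tcf7) were followed through 16 lines of mouse embryonic fibroblasts (MEFs). The 34 genes were taken by symbol, 19 ligands, 10 receptors, 2 co-receptors and 3 response genes, and all 34 were found among the 54453 genes of the expression table. Every line came from C57BL/6J embryos collected at E13.5, and was immortalised by serial passage through crisis, and the labels name no edited gene and no treatment. MEF-1 and MEF-2 come from sibling embryos, male and female respectively by the study's typing, and each consists of 1 parental line and 7 clonal lines that were each grown from 1 sorted cell. Total RNA was sequenced once per line, from dishes at 75% confluency in medium with 10% serum, so the 7 clonal lines of a set are separate clones of 1 immortalised culture. The spread used in all tests is that between these clones, and embryo, sex and the course of immortalisation cannot be told apart in any difference between MEF-1 and MEF-2.

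Wnt proteins are secreted, lipid-modified ligands that bind the cysteine-rich domain of Frizzled receptors. With Lrp5 or Lrp6 as co-receptor they stabilise beta-catenin, which enters the nucleus and acts with TCF/LEF factors, whereas other ligands, Wnt5a being the best known, work mainly through beta-catenin-independent routes that govern cell polarity and movement. In mesenchymal cells the pathway is known for its part in limb and bone formation and for holding back adipocyte differentiation.

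The values are regularised log (rlog) values on the log2 scale, which the authors shrank towards the average of each gene, so that differences between low genes are understated. Of the members, 27 had an average above 0 over the 16 lines and entered the tests with 15278 protein-coding genes. The markers of the cell type were present, with Col1a1 between 20.31 and 21.41 and Vim between 17.79 and 18.46 over the clonal lines. The fibroblast surface marker Thy1, however, was low in the MEF-1 clones (2.72 to 3.43) and spread from 3.42 to 8.02 in the MEF-2 clones. In both sets the parental line was above all its clones for Thy1, at 6.12 in MEF-1 and 10.22 in MEF-2. Over the 10 fibroblast markers the log2 of the summed linear values lay between 22.24 and 22.72 in MEF-1 and between 22.05 and 22.76 in MEF-2, with Thy1 higher and 4 markers lower in MEF-2. The sum rests on Col1a1, Col1a2 and Fn1, and the lower markers were Dcn (-4.74, adjusted p = 5.43e-08, limma) and Lum (-3.68, adjusted p = 4.02e-05), both without overlap between the sets, Pdgfra (-1.85, adjusted p = 8.78e-05) and Col3a1 (-0.60, adjusted p = 0.00447). For the 5 haematopoietic markers the same sum ran from 5.99 to 6.78 in MEF-1 and from 6.59 to 8.50 in MEF-2, with Adgre1 and Spi1 below 0 in all clonal lines. Csf1r was at 5.55 ± 0.660 in MEF-1 and 6.91 ± 0.838 in MEF-2 (SD, n = 7 each). It was higher in MEF-2 by 1.36 (adjusted p = 0.00615, limma). Csf1r lies on chromosome 18, and its lowest MEF-1 values were in clones 1, 4 and 5 (5.00, 5.20 and 4.56). The median gene of that chromosome was low in the same clones, as given with Fzd8 below, and its part in the Csf1r difference was not tested. Cd68 (4.82 and 5.16) and Ptprc (1.89 and 2.27) were not called. The part of these markers in the differences below was not tested.

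The 7 remaining members were at the bottom of the scale in every line. Wnt1, Wnt3, Wnt3a, Wnt8a, Wnt8b, Wnt9b and Fzd10 had averages of 0 or lower, and their values over the 14 clonal lines ran from -2.28 (Wnt8b) to 0.04 (Wnt3 in MEF-1 clone 1). These include Wnt3a, the ligand commonly used to activate beta-catenin signalling in culture. Of these genes Wnt1 and Wnt3a lie beside a ligand that was expressed. The starts of Wnt1 and Wnt10b face away from each other 11.71 kb apart on chromosome 15, and those of Wnt3a and Wnt9a 16.18 kb apart on chromosome 11, while Wnt9b and Wnt3, 24.33 kb apart, both had averages of 0 or lower.

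The sequences ahead of the start sites show how much these genes differ in CpG pairs, the sites whose methylation the study followed. The 5 promoter windows are for Wnt16 as the highest ligand of MEF-2 per length, for the neighbours Wnt10b and Wnt1, for Wnt11 because it holds a TCF/LEF match, and for Axin2 as the feedback gene. Each is the run of 250 bases before the RefSeq start (build GRCm38.p6), with every CpG pair in capitals, and none of the 5 overlaps an annotated exon.
Wnt16 (chr6:22287977-22288226, plus strand): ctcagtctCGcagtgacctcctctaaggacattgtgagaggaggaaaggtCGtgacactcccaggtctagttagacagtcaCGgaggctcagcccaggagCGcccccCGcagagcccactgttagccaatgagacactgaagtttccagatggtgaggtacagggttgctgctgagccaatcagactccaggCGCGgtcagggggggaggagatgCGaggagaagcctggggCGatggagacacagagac
Wnt10b (chr15:98778151-98778400, minus strand): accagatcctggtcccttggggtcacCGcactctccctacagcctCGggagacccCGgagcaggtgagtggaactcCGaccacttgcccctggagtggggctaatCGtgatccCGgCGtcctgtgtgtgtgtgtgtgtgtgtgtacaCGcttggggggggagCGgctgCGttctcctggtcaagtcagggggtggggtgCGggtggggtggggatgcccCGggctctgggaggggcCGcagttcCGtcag
Wnt1 (chr15:98789607-98789856, plus strand): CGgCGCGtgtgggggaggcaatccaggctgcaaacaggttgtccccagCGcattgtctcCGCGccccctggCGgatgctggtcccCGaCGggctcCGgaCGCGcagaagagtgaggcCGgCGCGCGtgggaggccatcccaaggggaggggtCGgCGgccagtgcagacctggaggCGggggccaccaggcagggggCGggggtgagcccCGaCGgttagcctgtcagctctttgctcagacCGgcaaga
Wnt11 (chr7:98834862-98835111, plus strand): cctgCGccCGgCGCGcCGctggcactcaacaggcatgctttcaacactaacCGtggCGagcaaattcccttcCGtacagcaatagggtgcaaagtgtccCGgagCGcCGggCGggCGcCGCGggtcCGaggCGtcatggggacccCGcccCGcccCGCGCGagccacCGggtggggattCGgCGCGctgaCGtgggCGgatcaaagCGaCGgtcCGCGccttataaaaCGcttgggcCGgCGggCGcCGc
Axin2 (chr11:108920099-108920348, plus strand): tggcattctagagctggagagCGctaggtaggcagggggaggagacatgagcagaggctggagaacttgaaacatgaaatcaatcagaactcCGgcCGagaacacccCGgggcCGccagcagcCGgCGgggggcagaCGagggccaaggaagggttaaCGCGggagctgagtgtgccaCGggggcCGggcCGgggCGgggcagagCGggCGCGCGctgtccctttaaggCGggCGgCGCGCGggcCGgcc
Wnt16 held 9 CpG pairs and Wnt10b 14, against 23 in Wnt1, 37 in Wnt11 and 24 in Axin2. RefSeq windows were at hand for 24 of the 34 members. The first window of the 18 expressed members that had one held a median of 30 CpG pairs (9 to 48). That of the 6 members with averages of 0 or lower held a median of 22.5 (5 to 41), while the median over 17486 protein-coding genes was 10. The first windows of Fzd5, Lef1 and Fzd10 lay in annotated exons over all 250 bases, and those of Wnt2b and Fzd9 over 212 and 183. The first starts of Fzd1, Fzd7 and Lef1 matched no annotated transcript. Wnt16, with the fewest pairs among the first windows of the 18 expressed members, was among the highest in level. Later starts of Wnt5b (4 and 7 pairs) and of Lef1 (6 and 5 pairs) held fewer. The letters CTTTGAT and CTTTGAA, searched on both strands as the core of TCF/LEF sites, occurred in 2 of the 31 member windows, in Wnt11 (ATCAAAG, 51 bases before the start) and at the start labelled 3 of Wnt5b (CTTTGAT, 71 bases before the start), and in 7.48% of all 32841 windows. DNA methylation was not analysed here.

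Levels of different genes were compared after subtracting the log2 of the exon length in kb. On this scale the most abundant ligand of the MEF-1 clonal lines was Wnt5a at 12.06, followed by Wnt16 at 11.50 and Wnt5b at 9.24. In the MEF-2 clonal lines the order was Wnt16 at 12.77, Wnt5a at 10.36 and Wnt5b at 8.42. Wnt5a and Wnt16 thus changed places, by less than 1 SD of Wnt16 in MEF-1 (SD 0.579, n = 7), and by more than 1 SD in MEF-2 (SD 0.434, n = 7). Both genes were read in the same lines, so the SD of Wnt16 does not measure the spread of the gap. With the longest transcript as length, Wnt5a and Wnt16 were at 12.22 and 11.91 in MEF-1 and at 10.52 and 13.18 in MEF-2. Fzd1 was the most abundant receptor per length in both sets, at 13.04 and 12.49, with Fzd8, Fzd2 and Fzd7 next, between 11.20 and 11.63. Fzd3 in MEF-1 (7.75) and Fzd4 in MEF-2 (8.35) were the lowest expressed receptors per length.

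**Figure D1:**
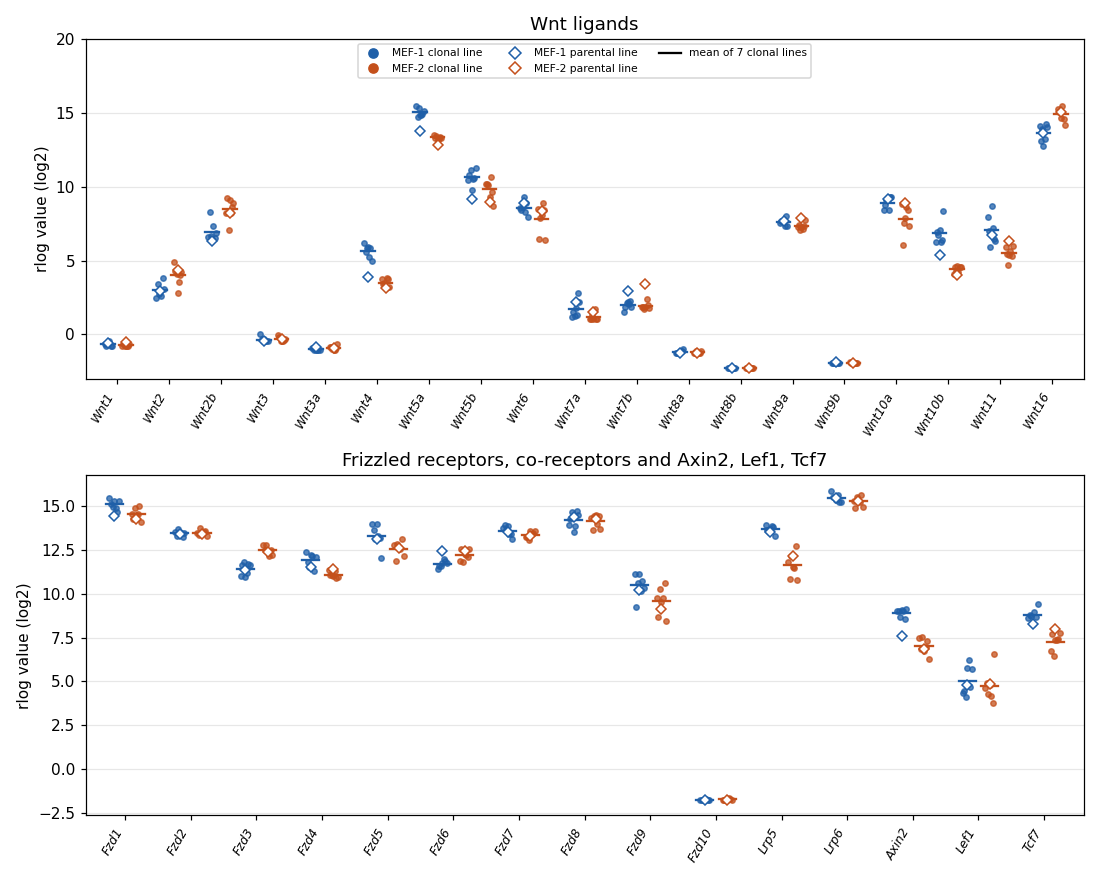
The rlog value (log2, y axis) of each of the 34 genes (x axis) is shown for the 7 MEF-1 clonal lines (blue circles), the 7 MEF-2 clonal lines (orange circles), the means of the clonal lines (bars) and the parental lines (open diamonds). Wnt5a, Wnt4, Wnt10b, Lrp5, Axin2 and Tcf7 lie higher in all MEF-1 clonal lines than in any MEF-2 clonal line, and Fzd3 lies lower.

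Between the 2 sets of clonal lines, most of the expressed members differed, as did most of all genes. More of the members were lower than higher in MEF-2. With limma and Benjamini-Hochberg adjustment over all 15278 genes, 18 of the 27 members were called at 5% (66.7%), where 56.1% of all genes were called. Of these, 5 were higher in MEF-2 (27.5% of all genes were) and 13 were lower (28.6% of all genes were). With a difference of 1 or more also required, 11 members were called, against 12.9% of all genes, 3 of them higher and 8 lower in MEF-2 (4.99% and 7.87% of all genes). The median difference, MEF-2 minus MEF-1, was -0.55 over the 27 members and -0.0044 over all genes. In all, 7 members did not overlap between the sets (25.9% of all genes did not), 6 of them higher in all MEF-1 clonal lines (13.6% of all genes) and 1 higher in all MEF-2 clonal lines (12.3%). By the non-overlap measure the members as a group stood at the background share, and by the measure of calls with a difference of 1 or more they stood above it. The members were chosen with earlier results of these data known. The set of all genes was not matched to the members in level or spread, and the excess was not tested.

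Among the 13 ligands tested, 3 were higher and 6 lower in MEF-2 (27.5% and 28.6% of all genes). The median difference of these ligands was -0.76. The 2 that act mainly outside beta-catenin signalling with the highest levels, Wnt5a and Wnt5b, were both lower. Wnt5a (chr14:28504750-28527448, mm10) was at 15.44, 14.70, 15.35, 14.84, 14.86, 14.89 and 15.15 in MEF-1 clones 1 to 7 and at 13.48, 13.28, 13.45, 13.18, 13.30, 13.36 and 13.27 in MEF-2 clones 1 to 7. The lowest MEF-1 clone stood more than 1 unit above the highest MEF-2 clone, and the difference was -1.70 (SE 0.11, adjusted p = 8.13e-09). Wnt5b was 10.65 ± 0.48 in MEF-1 and 9.82 ± 0.665 in MEF-2 (SD, n = 7 each), a difference of -0.83 (SE 0.28, adjusted p = 0.0216), with overlapping ranges. Fbxl14, a protein-coding gene on the opposite strand, overlaps Wnt5b, and whether the quantification used strand is not given in the sources used here.

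Wnt11, a ligand of convergent extension movements, was the member that varied most among the MEF-1 clones. Its values (chr7:98835112-98855195) were 7.93, 6.98, 5.91, 8.69, 7.22, 6.46 and 6.35 in MEF-1 clones 1 to 7, and 5.90, 5.42, 4.71, 5.37, 5.64, 5.33 and 5.98 in MEF-2 clones 1 to 7. MEF-1 clones 4 and 1 were the highest of all lines, while MEF-1 clone 3 lay within the MEF-2 range, so the sets overlapped although the means differed by -1.60 (SE 0.37, adjusted p = 0.00197).

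Wnt4 and Wnt10b showed the largest differences of the ligands. Wnt4 (chr4:137277489-137299726), needed in kidney and female reproductive tract development, was at 6.20, 5.58, 5.85, 5.95, 5.21, 5.84 and 4.95 in MEF-1 clones 1 to 7 and at 3.74, 3.40, 3.47, 3.14, 3.80, 3.75 and 3.22 in MEF-2 clones 1 to 7, a difference of -2.15 (SE 0.19, adjusted p = 3.29e-07). Wnt10b (chr15:98770712-98778150), which favours bone formation over fat, was at 6.28, 6.91, 6.74, 7.07, 6.26, 6.42 and 8.37 in MEF-1 clones 1 to 7 and at 4.07, 4.54, 4.32, 4.64, 4.20, 4.53 and 4.58 in MEF-2 clones 1 to 7, a difference of -2.45 (SE 0.27, adjusted p = 3.06e-06). In both genes every MEF-1 clone was above every MEF-2 clone, and for Wnt10b MEF-1 clone 7 stood apart above the other 6.

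Wnt10a, a ligand of tooth and skin appendage development, and Wnt6 lie 6.19 kb apart on chromosome 1 and on the same strand. Wnt10a (chr1:74791516-74804179) was at 8.44, 8.79, 9.08, 9.12, 8.39, 9.31 and 9.28 in MEF-1 clones 1 to 7 and at 8.80, 6.03, 7.57, 7.87, 8.65, 8.42 and 7.34 in MEF-2 clones 1 to 7. Wnt6 (chr1:74771892-74785322) was at 8.53, 8.44, 8.60, 9.32, 8.26, 8.86 and 7.97 in MEF-1 clones 1 to 7 and at 8.51, 6.44, 7.90, 8.11, 8.88, 8.42 and 6.38 in MEF-2 clones 1 to 7. Both neighbours were lowest in MEF-2 clones 2 and 7, clones 1, 5 and 6 of MEF-2 were the 3 highest of that set for both, and the ranges of the sets overlapped. The difference was -1.10 (SE 0.36, adjusted p = 0.0162) for Wnt10a, and -0.76 (SE 0.38, adjusted p = 0.0983) for Wnt6, which did not pass. Without MEF-2 clones 2 and 7, a choice made after the values were seen, the Wnt10a difference was -0.65 (adjusted p = 0.0373, limma with Benjamini-Hochberg adjustment) and the Wnt6 difference -0.20 (adjusted p = 0.469).

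The 3 ligands Wnt16, Wnt2b and Wnt2 were higher in MEF-2. Wnt16 (chr6:22288227-22298522), known for its role in cortical bone, was at 14.12, 13.10, 13.91, 12.75, 13.25, 14.21 and 14.04 in MEF-1 clones 1 to 7 and at 15.22, 15.05, 15.12, 14.66, 15.42, 14.61 and 14.17 in MEF-2 clones 1 to 7, a difference of 1.27 (SE 0.25, adjusted p = 0.000553). MEF-1 clone 6 was just above the lowest MEF-2 clone, clone 7, so the sets overlapped. Wnt2b (chr3:104945272-104961921), which takes part in lung specification together with Wnt2, was at 6.57, 8.31, 6.64, 6.44, 7.33, 6.54 and 6.88 in MEF-1 clones 1 to 7 and at 8.22, 9.26, 7.10, 9.09, 8.23, 8.64 and 8.93 in MEF-2 clones 1 to 7, a difference of 1.54 (SE 0.35, adjusted p = 0.00161). MEF-1 clone 2 was above 3 of the MEF-2 clones, and MEF-2 clone 3 was below MEF-1 clones 2 and 5. Wnt2 itself was low, 3.01 ± 0.478 in MEF-1 and 3.99 ± 0.661 in MEF-2 (SD, n = 7 each), and differed by 0.99 (SE 0.29, adjusted p = 0.00918). Wnt7a, Wnt7b and Wnt9a, with Wnt6 above, were the 4 ligands not called, and of these Wnt7a (-0.53, adjusted p = 0.0521) and Wnt9a (-0.30, adjusted p = 0.0638) missed the 5% level narrowly.

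**Figure D2:**
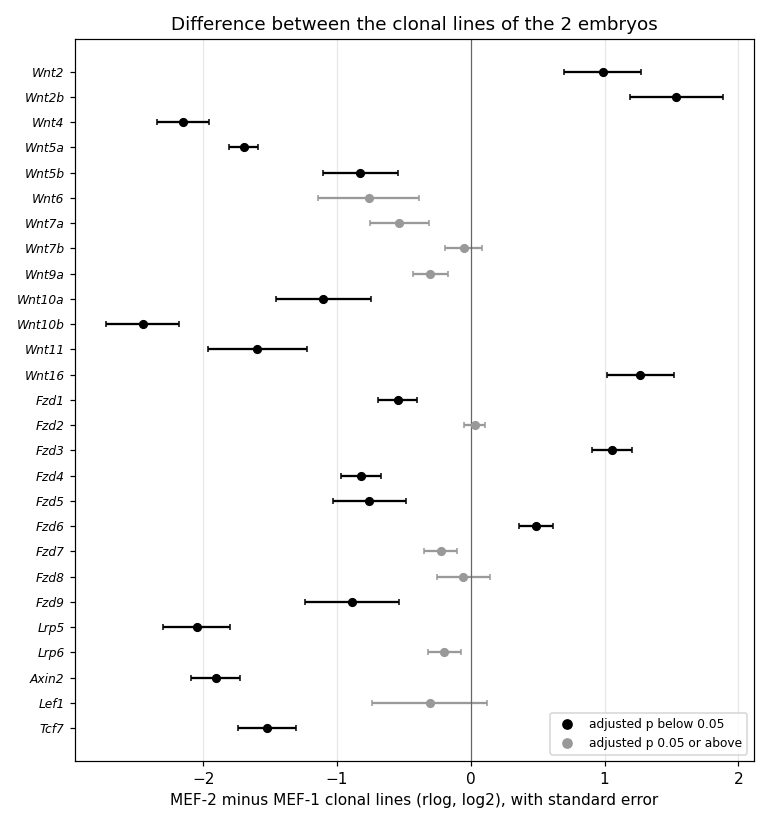
The difference MEF-2 minus MEF-1 (log2, x axis) between the means of 7 and 7 clonal lines is shown with its limma standard error for the 27 expressed members (y axis), in black where the adjusted p was below 0.05. The differences run from -2.45 for Wnt10b to 1.54 for Wnt2b.

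Of the 9 Frizzled receptors tested, 2 were higher and 4 lower in MEF-2 (27.5% and 28.6% of all genes). Their median difference was -0.23, and Fzd3 alone differed by 1 or more. Fzd3 (chr14:65192449-65262463), which acts in planar cell polarity and axon guidance, was at 11.04, 11.62, 11.83, 10.99, 11.18, 11.70 and 11.64 in MEF-1 clones 1 to 7 and at 12.79, 12.53, 12.78, 12.41, 12.13, 12.52 and 12.20 in MEF-2 clones 1 to 7. It was the 1 member higher in all MEF-2 clones, and the difference was 1.05 (SE 0.15, adjusted p = 3.36e-05). Fzd6, which shares the polarity function, was also higher, by 0.49 (SE 0.13, adjusted p = 0.00427).

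The 4 receptors lower in MEF-2 were Fzd4, Fzd9, Fzd5 and Fzd1. Fzd4, a receptor of retinal vessel growth, differed by -0.82 (SE 0.15, adjusted p = 0.000303) and Fzd1, the most abundant receptor, by -0.55 (SE 0.15, adjusted p = 0.00528). Fzd5 differed by -0.76 (SE 0.27, adjusted p = 0.0267) and Fzd9 by -0.89 (SE 0.35, adjusted p = 0.043). The Fzd5 call was lost when MEF-1 clone 1, 2 or 4 or MEF-2 clone 2 or 7 was left out (adjusted p between 0.0516 and 0.0588, limma). The Fzd9 call was lost when MEF-1 clone 1, 3, 4, 6 or 7 or MEF-2 clone 1, 2, 4, 5 or 7 was left out (adjusted p between 0.0541 and 0.091, limma). Without MEF-2 clones 2 and 7 together the adjusted p (limma with Benjamini-Hochberg adjustment) was 0.125 for Fzd5 and 0.204 for Fzd9. Fzd2, Fzd7 and Fzd8 were not called, with differences of 0.03, -0.23 and -0.06. Fzd2 had the narrowest range of the 27 expressed members, between 13.26 and 13.77 in all 14 clonal lines.

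Fzd8 lies on chromosome 18. The distance of its median gene from the mean of all clonal lines was centred on the autosomal median of each line. It was -0.47, -0.50 and -0.46 in MEF-1 clones 1, 4 and 5 and between 0.07 and 0.16 in the other MEF-1 clones. Fzd8 was at 13.91, 14.28, 14.67, 13.53, 13.87, 14.70 and 14.49 in MEF-1 clones 1 to 7, and clones 1, 4 and 5 were its 3 lowest. With the median of each chromosome taken away in each line, Fzd8 differed by -0.35 (adjusted p = 0.0482, limma with Benjamini-Hochberg adjustment).

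Of the co-receptors Lrp5 was called and Lrp6 was not, and the contrast between them was not tested. Lrp5 (chr19:3584828-3686564), whose loss lowers bone mass, was at 13.92, 13.64, 13.53, 13.67, 13.89, 13.84 and 13.32 in MEF-1 clones 1 to 7 and at 11.83, 10.87, 12.18, 11.55, 11.50, 12.74 and 10.79 in MEF-2 clones 1 to 7. All MEF-1 clones were above all MEF-2 clones, clones 7 and 2 were again the lowest of MEF-2, and the difference was -2.05 (SE 0.25, adjusted p = 7.06e-06). Lrp6, the other co-receptor, was at 15.48 ± 0.221 in MEF-1 and 15.28 ± 0.276 in MEF-2 (SD, n = 7 each) and was not called, with a difference of -0.20 (SE 0.13, adjusted p = 0.191). Lrp5 lies on chromosome 19, whose median gene differed by -0.38 in MEF-2 (adjusted p = 0.00369, exact permutation test over lines, two-sided), and with chromosome medians taken away Lrp5 still differed by -1.68.

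Axin2 and Tcf7, like Lrp5, did not overlap between the sets. Axin2 (chr11:108920349-108950783), which encodes a scaffold of the beta-catenin destruction complex and is itself induced by beta-catenin, was at 9.00, 9.01, 8.70, 9.09, 9.03, 8.55 and 9.11 in MEF-1 clones 1 to 7 and at 7.47, 6.84, 7.56, 6.75, 6.95, 7.30 and 6.27 in MEF-2 clones 1 to 7. Tcf7 (chr11:52252371-52283014), which encodes the transcription factor TCF1, was at 8.64, 8.81, 8.75, 8.28, 8.94, 8.65 and 9.45 in MEF-1 clones 1 to 7 and at 6.76, 7.72, 6.47, 7.37, 7.34, 7.43 and 7.77 in MEF-2 clones 1 to 7. Both were higher in every MEF-1 clone, with differences of -1.91 (SE 0.18, adjusted p = 7.18e-07) for Axin2 and -1.52 (SE 0.22, adjusted p = 3.12e-05) for Tcf7. Lef1 (chr3:131110471-131224356), the related factor of hair follicle and lymphoid development, was at 4.34, 4.43, 4.12, 5.78, 6.23, 4.69 and 5.73 in MEF-1 clones 1 to 7 and at 4.63, 4.92, 4.27, 4.81, 4.16, 3.79 and 6.56 in MEF-2 clones 1 to 7. It was low and uneven, with MEF-1 clones 5, 4 and 7 and MEF-2 clone 7 above 5 and the rest below, and was not called (-0.31, SE 0.43, adjusted p = 0.558). The Lef1 difference was -0.61 without MEF-2 clone 7 and -0.11 without MEF-1 clone 5.

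Across the 7 MEF-2 clones Axin2 and Tcf7 ran in opposite order. Pearson's r was -0.84 (exact permutation p = 0.0171, two-sided) and Spearman's rho was -0.82 (exact permutation p = 0.0341), but neither passed adjustment over the 6 relations computed (adjusted p = 0.0756 and 0.205), and r was -0.71 without the 2 clones farthest from the median of Axin2. Axin2 and Lef1 gave r = -0.79 in MEF-2 (exact permutation p = 0.0252, adjusted p = 0.0756), with rho = -0.68 (exact permutation p = 0.110), and r was -0.46 without the 2 farthest clones. In MEF-1 the same relations gave r = 0.22 and 0.56 (exact permutation p = 0.589 and 0.221) and rho = 0.36 and 0.64 (exact permutation p = 0.444 and 0.139), with r = 0.24 and 0.67 without the 2 farthest clones. Lef1 and Tcf7 gave r = 0.24 in MEF-1 and 0.48 in MEF-2 (exact permutation p = 0.624 and 0.279), rho = 0.21 and 0.54 (exact permutation p = 0.661 and 0.236), and r = 0.90 and 0.53 without the 2 farthest clones. No relation among the 3 genes passed adjustment in either set.

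The spread of the members within each set was set beside that of genes of like level. Their SD over the 7 clones was above the median SD of genes in the same quintile of average expression for 24 of 27 members in MEF-1 and 22 of 27 in MEF-2, where 50% of all genes are above by construction. A range of 2 or more was seen in 3 members in MEF-1 (5.69% of all genes) and in 6 in MEF-2 (4.7% of all genes). In MEF-1 these were Wnt11 (range 2.78), Lef1 (2.12) and Wnt10b (2.10), and in MEF-2 Wnt10a (2.76), Lef1 (2.76), Wnt6 (2.51), Wnt2b (2.17), Fzd9 (2.14) and Wnt2 (2.11). All of these but Fzd9 were in the 2 lowest quintiles of average expression. In those quintiles 12.5% and 12.2% of genes had a range of 2 or more in MEF-1, and 7.46% and 11.5% in MEF-2. A range of 1 or more was seen in 15 and 13 members (24.2% and 18.1% of all genes). The shrinkage of the rlog values narrows the range of low genes by an amount that is not known here.

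**Figure D3:**
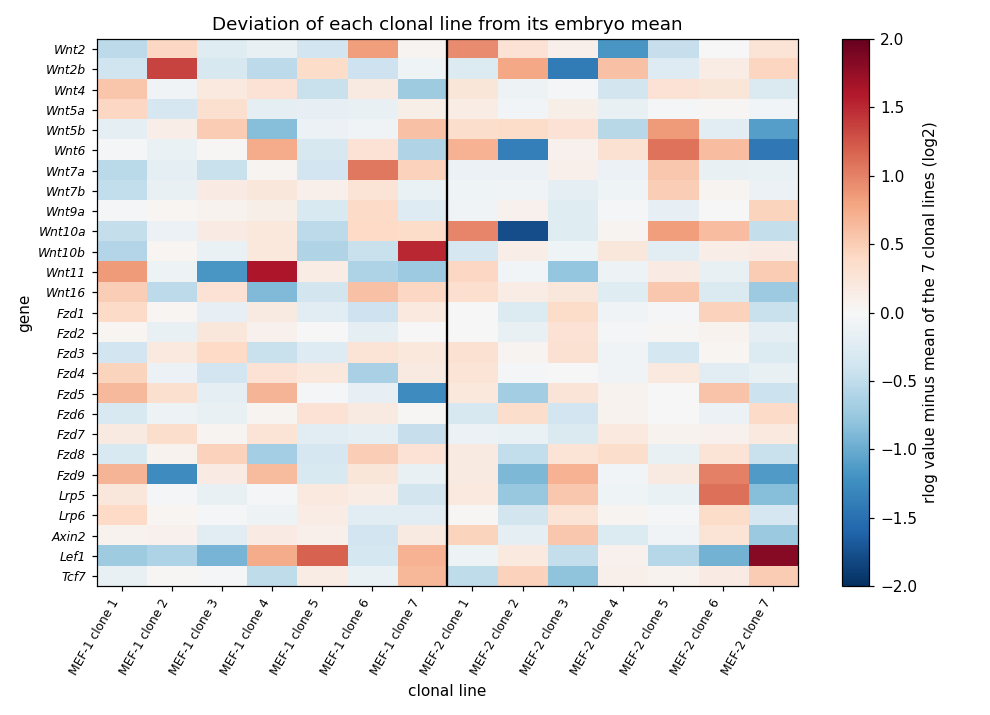
Each cell is the rlog value of a gene (rows) in a clonal line (columns) minus the mean of the 7 clonal lines of its embryo (colour, log2, from -2 in blue to 2 in red). MEF-2 clones 2 and 7 are low for Wnt6, Wnt10a, Fzd5, Fzd9 and Lrp5, and Lef1 stands out in MEF-2 clone 7.

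MEF-2 clones 2 and 7 were the 2 lowest clones of MEF-2 for 9 of 27 members, 5 of them Frizzled receptors, namely Wnt6, Wnt10a, Fzd1, Fzd2, Fzd5, Fzd8, Fzd9, Lrp5 and Lrp6, against 13.2% of all genes. For Fzd6 they were the 2 highest, at 12.55 and 12.58, and for Fzd7 clone 7 was the second highest, at 13.57. This pair was picked after the values were seen, and the count carries no test. Clone 7 of MEF-2 was the lowest clone for 8 members (19.9% of all genes) and the highest for 5 (24.6% of all genes), so it was not low throughout.

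The parental lines, each a mixture of cells with 1 library, were set against the range of their clones without a test. The MEF-1 parental line lay outside the range for 9 of 27 members (40.9% of all genes), below it for 7 (20.8%) and above it for 2 (20.2%). The MEF-2 parental line lay outside for 9 (34.2% of all genes), below for 3 (18.5%) and above for 6 (15.8%). At a distance of 1 or more from the clonal mean there were 5 members in MEF-1 (5.8% of all genes) and 2 in MEF-2 (2.72% of all genes).

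Wnt4, Wnt5a and Wnt10b, the ligands that separated the clones of the 2 embryos, were below all clones in both parental lines. Wnt4 was at 3.90 in the MEF-1 parental line against 4.95 to 6.20 in its clones, and at 3.12 in the MEF-2 parental line against 3.14 to 3.80. Wnt5a was at 13.77 against 14.70 to 15.44 in MEF-1 and at 12.83 against 13.18 to 13.48 in MEF-2. Wnt10b was at 5.37 against 6.26 to 8.37 in MEF-1 and at 4.02 against 4.07 to 4.64 in MEF-2. The gap to the clones was wider in MEF-1 for all 3. Between the parental lines the MEF-1 line was nevertheless the higher for all 3, as among the clones.

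Axin2 was at 7.58 in the MEF-1 parental line against 8.55 to 9.11 in its clones, a gap of -1.35 from their mean. In MEF-2 the parental line, at 6.87, was inside the range of its clones. Wnt5b was at 9.16 in the MEF-1 parental line against 9.80 to 11.23, which makes it, with Wnt4, Wnt5a, Wnt10b and Axin2, 1 of the 5 members that were 1 or more from the clonal mean. Wnt2b (6.32) and Fzd1 (14.46) were also below the MEF-1 clones by smaller distances, and Fzd6 (12.45 against 11.41 to 12.00) was above.

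Wnt7b was above the clones in both parental lines, at 2.94 against 1.49 to 2.26 in MEF-1 and at 3.39 against 1.74 to 2.43 in MEF-2. In MEF-2 the parental line was also above the clones for Wnt9a (7.89), Wnt10a (8.93), Wnt11 (6.35), Fzd4 (11.42) and Tcf7 (7.99 against 6.47 to 7.77). For Tcf7 the MEF-1 parental line was at 8.30, at the lower edge of its clones, so the parental lines of the 2 embryos lay closer to each other than the clones did. The other members given by line were inside the range of the clones in both parental lines: Wnt6 was at 8.91 and 8.34, Wnt16 at 13.64 and 15.05, Fzd3 at 11.38 and 12.41, Lrp5 at 13.51 and 12.18, and Lef1 at 4.78 and 4.86 in MEF-1 and MEF-2.

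**Figure D4:**
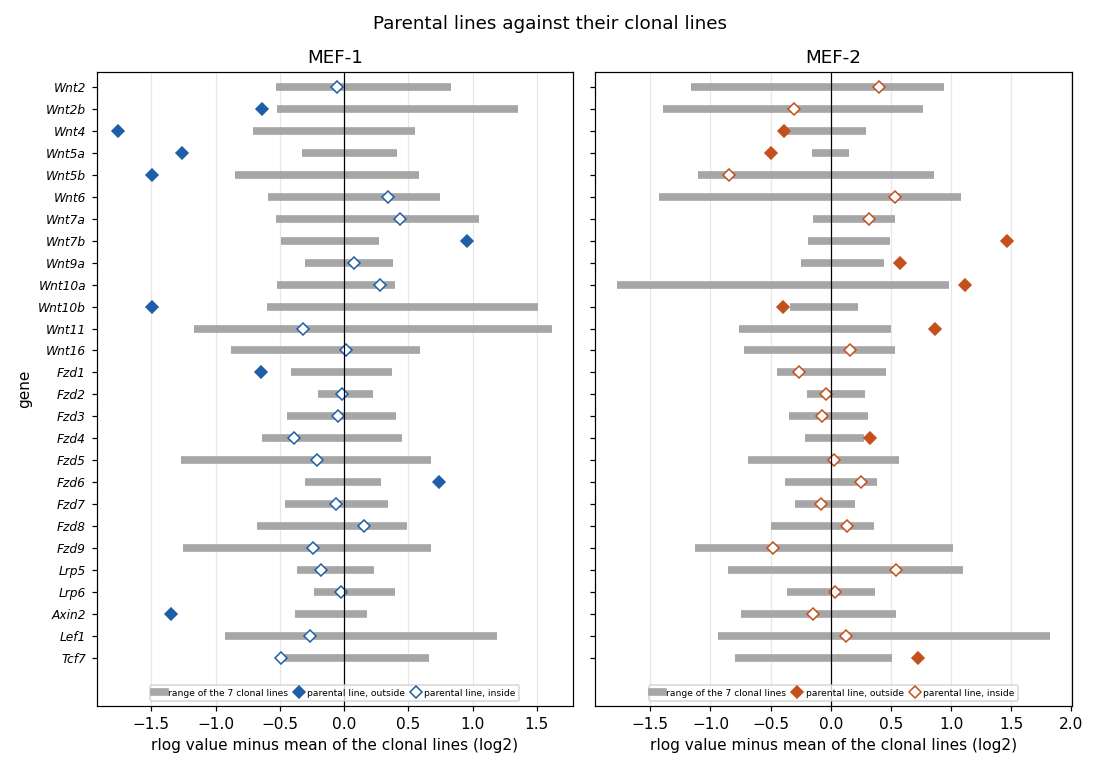
The value of each parental line (diamonds) and the range of its 7 clonal lines (grey bars) are shown for the 27 expressed members as the distance from the clonal mean (rlog, log2, x axis), MEF-1 on the left and MEF-2 on the right, with diamonds filled where the parental line lies outside. Wnt4, Wnt5a and Wnt10b lie below the bars in both panels, Wnt7b lies above in both, and Axin2 lies below in MEF-1 only.

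Around the ligands and receptors, 49 other genes of the pathway were read from a list. The list was made from general knowledge, but with earlier results of these data known. Of the 49 genes, 47 were tested, with 14 higher and 15 lower in MEF-2 (27.5% and 28.6% of all genes). Their median difference was 0.0004. Neither gene that makes a Wnt ligand ready for secretion was called. Porcn, the acyltransferase, which lies on the X chromosome, differed by 0.01 (SE 0.13, adjusted p = 0.978) and Wls, the ligand carrier, by 0.04 (SE 0.06, adjusted p = 0.645). Of the other receptors Ptk7, a polarity co-receptor, was higher in MEF-2 by 0.74 (SE 0.13, adjusted p = 0.000195), Ror1, a receptor of Wnt5a, was lower, with a difference of -0.46 (SE 0.14, adjusted p = 0.0136), and Ror2 and Ryk were not called (-0.38 and 0.02).

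The R-spondin ligands keep Frizzled receptors at the cell surface. Of the 8 tested genes of this axis, 3 were higher and 2 lower in MEF-2 (27.5% and 28.6% of all genes). Rnf43, a ubiquitin ligase that removes Frizzled, was higher by 1.58 (SE 0.30, adjusted p = 0.000423), and Lgr5, an R-spondin receptor, by 1.72 (SE 0.55, adjusted p = 0.015). Znrf3, the partner ligase of Rnf43, was lower, with a difference of -0.72 (SE 0.08, adjusted p = 4.73e-06), and so was Rspo1, with -1.84 (SE 0.37, adjusted p = 0.00064). The 2 ligases of the same function thus differed in opposite directions.

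Of the 9 genes of the cytoplasmic core, 4 were higher and 2 lower, each by less than 1 (27.5% of all genes were higher and 28.6% lower). Axin1, the constitutive relative of Axin2, was lower, with a difference of -0.47 (SE 0.07, adjusted p = 2.75e-05), and Dvl1 with -0.23 (SE 0.05, adjusted p = 0.00105). Apc and Csnk1a1, both of the destruction complex and both on chromosome 18, were higher by 0.56 (SE 0.12, adjusted p = 0.00135) and 0.50 (SE 0.14, adjusted p = 0.00635). On that chromosome the median gene was higher in MEF-2 by 0.28 (adjusted p = 0.0401, exact permutation test, two-sided). The chromosome median was low only in MEF-1 clones 1, 4 and 5 (-0.47, -0.50 and -0.46). In these clones Apc was at 12.83, 12.71 and 12.74 and Csnk1a1 at 14.00, 14.03 and 14.18, the lowest MEF-1 values of both. From read coverage the paper lists chromosomes 18 and 19 among those aneuploid in at least 1 line. Its part in these calls was not tested.

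Among the 10 nuclear partners 2 were higher and 4 lower (27.5% and 28.6% of all genes). Pygo1, a beta-catenin cofactor, had the largest difference of the pathway, with 11.47 to 12.19 in the MEF-1 clones and 5.98 to 6.17 in the MEF-2 clones, a difference of -5.74 (SE 0.10, adjusted p = 7.77e-15). Its relative Pygo2 differed by 0.13 (SE 0.04, adjusted p = 0.0161). Tle1 was higher by 0.77 (SE 0.10, adjusted p = 1.94e-05) and Tle2, also a Groucho co-repressor, was lower, with -0.69 (SE 0.18, adjusted p = 0.00397). The MEF-1 parental line was below its clones for Pygo1, at 10.89, and the MEF-2 parental line was above its clones, at 9.88.

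Of the 7 tested target genes of beta-catenin 4 were lower in MEF-2 and the other 3 were not called, with a median difference of -1.41 (28.6% of all genes were lower and 27.5% higher). Nkd1, an inhibitor of Dishevelled, ran from 10.76 to 11.88 in the MEF-1 clones and from 5.89 to 7.14 in the MEF-2 clones, a difference of -5.06 (SE 0.23, adjusted p = 3.52e-10). Apcdd1, an inhibitor at the cell surface, differed by -1.57 (SE 0.18, adjusted p = 4.73e-06). The parental lines were at 10.40 and 8.53 for Nkd1, closer to each other than the clones, as for Pygo1. Those not called were Myc (0.16), Ccnd1 (-0.16) and Nkd2 (-0.16, adjusted p = 0.423), the close relative of Nkd1.

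Of the 7 planar polarity genes 4 were higher and 2 lower in MEF-2 (27.5% and 28.6% of all genes), beside Fzd3 and Fzd6 above. Celsr3 was higher by 1.22 (SE 0.21, adjusted p = 0.000175) and Celsr1 by 0.81 (SE 0.25, adjusted p = 0.0136). Celsr2, another cadherin of this family, was lower, with -0.46 (SE 0.11, adjusted p = 0.00254). Vangl1 was lower, with -0.33 (SE 0.09, adjusted p = 0.00454). Its relative Vangl2 was higher by 0.81 (SE 0.09, adjusted p = 3.05e-06), without overlap between the sets.

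**Figure D5:**
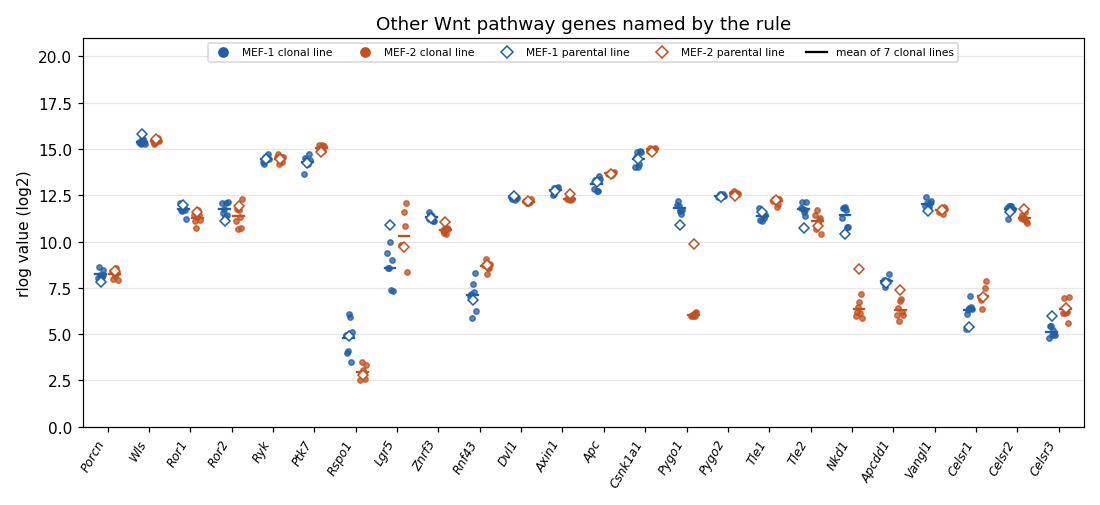
The rlog value (log2, y axis) of 24 other Wnt pathway genes (x axis) is shown for each line, with the symbols of the plot of member levels. The means of the clonal lines of the 2 embryos differ by over 5 for Pygo1 and Nkd1, with both parental lines in between.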

How the data were processed

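Total RNA was sequenced as paired-end reads of 150 bp from 16 MEF lines, 1 library each. The authors trimmed the reads with Trim Galore (0.6.0), quantified transcripts with Salmon (1.5.2) on mm10 and Ensembl 102, and deposited log2 values from the rlog transformation of DESeq2 (1.24.0). How transcripts were summed into genes is not given in the sources used here. The values hold no counts, so depth is unknown and no counting interval is given.

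Identifiers were matched to GENCODE mouse release 21 (Ensembl 96, mm10 coordinates), which held 54130 of 54453 genes, 21810 of them protein-coding. The 15278 with an average above 0 were fitted with limma (3.58.1, R 4.3.3, trended prior), 7 MEF-2 against 7 MEF-1 clonal lines, called at 0.05 after Benjamini-Hochberg adjustment, and an adjusted p of a gene is from this fit unless another setting is named beside it. Chromosome medians left out genes whose average was at or under the 40th percentile. Those printed were centred on the autosomal median of each line, and those taken away in the alternative fit were not. Members and lists were chosen with earlier results of these data known. A value in every line was given for called members with a difference of 1 or more, the 3 with the widest range in each set, and Axin2, Lef1 and Tcf7. Of other pathway genes, those named were, per list and direction, the 2 called genes that differed most, and whole lists of at most 4 genes. Vangl2, the target genes that were not called and the markers given by name were picked after their values were seen. The endothelial, epithelial, neural and skeletal muscle markers had log2 sums of 5.03 to 6.38, 6.98 to 8.51, 11.62 to 12.33 and 2.94 to 4.26 in MEF-1 and of 5.06 to 6.84, 6.73 to 8.43, 12.30 to 12.81 and 3.35 to 4.42 in MEF-2. The neural sum rests on Map2, which was higher in MEF-2 by 0.60 (adjusted p = 0.000275, limma). Gfap was also higher (0.65, adjusted p = 0.000159), and Sox2 (-2.01, adjusted p = 0.019) and Elavl3 (-0.225, adjusted p = 0.0336) were lower. Sox2 was at 7.46 in MEF-1 clone 7 and at most 3.50 in the other clones. Alternatives were other filters and normalisations, chromosome medians taken away, added parental lines, a replicate block, limma without a trend, exact permutation tests, each line left out, and MEF-2 clones 2 and 7 left out, the last chosen after seeing the data. Promoter windows are from RefSeq.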

Additional observations from a re-analysis of the deposited data

Results flagged for a closer look

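Among the 54 sets of 7 clonal lines examined for the 27 expressed members, 4 held a line far from the other 6 by Dixon's criterion, where chance alone marks about 1 set in 20, or 2.7 sets. Wnt10b was at 8.37 in MEF-1 clone 7, and the next clone was at 7.07. Lef1 was at 6.56 in MEF-2 clone 7, against 4.92 in the next clone. Wnt7a and Wnt7b, both low genes, were highest in MEF-2 clone 5, at 1.72 (next 1.29) and 2.43 (next 1.98). Among 48 such sets for the 24 other pathway genes named by the rule above, where chance marks about 2.4, there was 1. It was Celsr2, which was lowest in MEF-1 clone 2, at 11.21 against 11.73 in the next clone.

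For 2 of the 24 other pathway genes named by the rule above, the parental lines moved apart from their clones in opposite directions. This was not tested, since each parental line has 1 library. Pygo1 differed from its clonal mean by -0.91 in the MEF-1 parental line and by 3.83 in the MEF-2 parental line. Nkd1 differed by -1.03 in the MEF-1 parental line and by 2.16 in the MEF-2 parental line.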

How the results depend on the processing

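Of the 18 called members, 15 kept their direction and call under every alternative that gave them a value. The exceptions were Wnt5b with the parental lines added (adjusted p = 0.0549), Fzd5 in 7 of 24 alternatives (adjusted p up to 0.125) and Fzd9 in 14 of 24 (adjusted p up to 0.204, limma with Benjamini-Hochberg adjustment). The count of called members was 16 to 20 when 1 clonal line was left out and 17 without MEF-2 clones 2 and 7. It was 18 with clone number as a replicate block, which was run because the labels share numbers. Same-numbered clones are different cells, their deviations correlated between -0.133 and 0.199, and the block changed no other count by over 1.5 times.

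Calls were gained by Wnt7a and Wnt9a in 6 alternatives each, by Fzd7 in 2, and by Wnt6 and Fzd8 in 1 each. Over all alternatives (limma or exact permutation test) the adjusted p ran from 0.0295 to 0.196 for Wnt7a and from 0.0198 to 0.6825 for Wnt9a. Reversals touched only members that were not called. Wnt7b was 0.17 after quantile normalisation, 0.0020 with chromosome medians taken away and 0.0105 with the parental lines added. Fzd2 was -0.0034 with chromosome medians taken away and -0.0198 to 0.0651 with 1 line left out, Fzd8 was -0.17 to 0.0258 with 1 line left out and 0.13 without MEF-2 clones 2 and 7, and Lef1 was 0.11 after quantile normalisation. In MEF-1, r ranged from -0.15 to 0.59 for Axin2 and Tcf7 and from -0.0945 to 0.68 for Lef1 and Tcf7 with 1 line left out, and was negative without clone 7. A range of 1 or more in place of 2 gave 15 varying members of the MEF-1 set and 13 of the MEF-2 set. The cause was not tested. Depth is unknown, so low values cannot be told from no reads, and parental lines have 1 library each.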
